A study of Mus musculus with 20 samples.

Results

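The expression of 10 genes whose enzymes hydroxylate and crosslink collagen was followed in mesenchymal cells of the mouse liver. The genes were taken by symbol from the 24848 genes listed for each library. They are the lysyl oxidase genes Lox, Loxl1, Loxl2, Loxl3 and Loxl4, the prolyl 4-hydroxylase alpha subunit genes P4ha1, P4ha2 and P4ha3, and the lysyl hydroxylase genes Plod1 and Plod2. All 10 had enough counts to be among the 14751 genes tested.

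Collagen chains are hydroxylated on proline and lysine inside the endoplasmic reticulum, by enzymes that need iron, oxygen, 2-oxoglutarate and ascorbate. Prolyl 4-hydroxylation stabilises the triple helix, and the alpha subunits carry the catalytic site while the beta subunit, protein disulfide isomerase (P4hb), is shared. After secretion, the copper-dependent lysyl oxidases convert lysines and hydroxylysines of collagen, and lysines of elastin, to aldehydes that form the covalent crosslinks. In liver scars these crosslinks stiffen the matrix and make it harder to degrade.

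Cells came from C57BL/6 mouse liver and no genotype change or treatment is given in the labels. Portal mesenchymal stem cells (PMSC), their culture-derived myofibroblasts at day 3 (PMSC-MF-3d) and day 7 (PMSC-MF-7d), myofibroblasts derived from stellate cells (HSC-MF-7d) and hepatic stellate cells (HSC) had 4 RNA-seq libraries each, 20 in all. The culture time of HSC-MF-7d is uncertain, since the titles say day 7 and the series description day 3. The mice's age and sex, how the cells were isolated and whether the libraries come from different animals are not given in the sources used here. The p-values therefore measure only the spread between these libraries, which may be technical.

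Fresh portal cells held far more Lox, Loxl1, Loxl2 and Plod2 RNA than fresh stellate cells, with log2 fold changes of 7.08, 5.0, 1.90 and 2.57 in PMSC against HSC, and less Plod1 (-0.88). In culture Lox, Loxl3, P4ha3 and Plod2 rose in both lineages and Loxl1 and Plod1 fell in both, although the portal fall of Plod1 was not called under every scaling. P4ha2 was also higher in PMSC-MF-7d than in PMSC (0.57) and in HSC-MF-7d than in HSC (1.87). It was not called in PMSC-MF-3d against PMSC under the main scaling. Loxl2 and Loxl4 reached their highest levels in stellate-derived myofibroblasts, and Loxl3, P4ha3 and Plod2 theirs in PMSC-MF-7d. Loxl1 was higher in portal than in stellate cells by 5.0 ± 0.22 (log2, ± SE) in PMSC against HSC and by 5.10 ± 0.22 in PMSC-MF-7d against HSC-MF-7d.

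Expected counts summed to between 11810532 and 26675589 per library. PMSC held 15025 to 17162 CPM (counts scaled to a common library size) of 10 portal fibroblast markers summed, against 31.5 to 64.2 in HSC. HSC held 16020 to 23735 CPM of 10 stellate cell markers summed, against 606 to 1087 in PMSC, as both labels say. In PMSC-MF-3d, PMSC-MF-7d and HSC-MF-7d the portal sum was 3129 to 3672, 5423 to 7392 and 1855 to 2328 CPM. Fbln2 was the highest of these markers in each. In PMSC-MF-7d against PMSC 8 of the 10 were lower and 2 higher (39.0% and 38.1% of all tested genes). The stellate sum was 67.0 to 105, 73.5 to 83.7 and 652 to 751 CPM in the same cultured groups. HSC also carried RNA of other liver cells. Its libraries held 3448 to 15515 CPM of hepatocyte markers (9 of the 10 were listed, all above 1 CPM), 7717 to 9415 CPM of 10 sinusoidal endothelial markers and 2421 to 9029 CPM of 10 Kupffer cell and macrophage markers. PMSC held 682 to 1115, 91.1 to 279 and 26.2 to 35.3 CPM of the same lists. Most of its hepatocyte sum was Cyp2e1 (815 ± 171 CPM in PMSC, against 164 ± 103 CPM in HSC, SD, n = 4 each), while the other 8 markers were lower in PMSC. In PMSC-MF-3d, PMSC-MF-7d and HSC-MF-7d the hepatocyte sum was at most 4.47 CPM and the macrophage sum at most 55.9 CPM. Endothelial markers summed to 80.4 to 329 CPM there, most of it Ptprb. The 6 mesothelial markers summed to 60.2 to 111 CPM in PMSC, 19.1 to 29.0 in PMSC-MF-3d, 50.98 to 101 in PMSC-MF-7d, 8.29 to 16.7 in HSC-MF-7d and 1.27 to 8.27 in HSC. The highest of them was Wt1 in PMSC and Upk1b in both portal cultures. In PMSC-MF-7d against PMSC-MF-3d 3 of the 6 were higher (18.6% of all tested genes), with a median log2 fold change of 2.29. PMSC-MF-7d against PMSC gave 4 higher and 2 lower (38.1% and 39.0%), with a median of 3.33. Against HSC-MF-7d, PMSC-MF-7d gave 3 higher and 0 lower by edgeR (23.9% and 23.1%), with a median of 3.94. Msln, a defining marker, was under 2 CPM in every library. The part of mesothelial RNA in the portal comparisons was not tested. Every comparison with HSC below carries this difference, whose part in the results was not tested. In bulk RNA, fewer cells of a type and less RNA per cell cannot be told apart.

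The scaling used was TMM (trimmed mean of M-values). With library totals alone in its place, the median log2 fold change over the tested genes in PMSC against HSC was -0.44, against -0.10 with TMM, and 33.3% of the genes past the threshold were higher, against 45.6%. The same change moved the median to 0.41, against -0.07, in PMSC-MF-3d against PMSC (61.7% higher, against 47.5%), to 0.43, against 0.00, at day 7 against PMSC (63.5%, against 49.4%) and to 0.44, against 0.10, in the difference of culture changes (66.0%, against 51.8%). Tests on log2 TPM (counts scaled by transcript length and library size) moved these shares alike, and moved the share in PMSC-MF-7d against PMSC-MF-3d to 64.4%, against 51.7%. Small changes of single genes in these comparisons therefore depend on the scaling, and the genes whose direction flips are named with their values.

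A gene was called at an adjusted p under 0.05 (edgeR quasi-likelihood test, Benjamini-Hochberg over all tested genes). In PMSC against HSC, 9 of the 10 genes were higher and Plod1 was lower, where 73.7% of all tested genes were called, 33.6% as higher and 40.1% as lower. In HSC-MF-7d against HSC, 8 were higher and Loxl1 and Plod1 lower, where 74.5% of all genes were called, 36.0% as higher and 38.5% as lower. In PMSC-MF-3d against PMSC, 4 were higher and 5 lower, beside 37.2% and 41.1% of all genes (78.3% in either direction). At day 7 against PMSC, 5 were higher and 2 lower, beside 38.1% and 39.0% of all genes (77.0%). In PMSC-MF-7d against PMSC-MF-3d, 7 were higher and 0 lower by edgeR, with 0 lower also at an unadjusted p under 0.05 and by DESeq2, beside 18.6% and 17.4% of all genes (36.0%). In PMSC-MF-7d against HSC-MF-7d, 5 were higher and 3 lower, beside 23.9% and 23.1% of all genes (47.1%). The culture change of PMSC differed from that of HSC for 9 genes, with the portal value higher for 2 and lower for 7, beside 31.4% and 29.2% of all genes (60.6%). With most tested genes called in 5 of these 7 comparisons, a call by itself says little about these enzymes, and the sizes and levels below carry the description. The median log2 fold change over the 10 genes was 1.46 in PMSC against HSC and 1.64 in HSC-MF-7d against HSC, against -0.10 and -0.03 over all tested genes.

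Lox encodes the founding lysyl oxidase, which acts on fibrillar collagen and elastin, and lies on chromosome 18. Lox measured 662, 1068, 692 and 730 CPM in the 4 PMSC libraries, against 2.96, 12.5, 2.26 and 5.62 CPM in HSC. In the cultured groups it measured 3470, 3072, 3154 and 3125 CPM in PMSC-MF-3d, while PMSC-MF-7d had 3077, 3284, 3889 and 3945 CPM and HSC-MF-7d 1624, 1311, 1446 and 1239 CPM. Each fresh and cultured portal library was thus far above every HSC library, and every cultured library of either origin was above every fresh one. Lox was higher by 7.08 ± 0.39 on the log2 scale (± SE) in PMSC than in HSC (adjusted p = 5.0e-12). In culture it rose by 2.02 ± 0.30 at day 3 and 2.17 ± 0.30 at day 7 against PMSC, and by 7.91 ± 0.40 in HSC-MF-7d against HSC (adjusted p = 1.3e-12). PMSC-MF-7d and PMSC-MF-3d did not differ past the threshold (0.15 ± 0.29, adjusted p = 0.75). The rise was smaller in portal than in stellate cells (difference -5.74 ± 0.46, adjusted p = 2.7e-09). Among the cultured cells Lox stayed higher in PMSC-MF-7d than in HSC-MF-7d, by 1.34 ± 0.30 (adjusted p = 0.000995). The HSC level rested on 41 to 210 counts per library. HSC replicate 2 held the 210, and without it the log2 fold changes against HSC were 7.78 for PMSC and 8.63 for HSC-MF-7d, and the difference of culture changes was -6.43.

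Loxl1, known in mice for its role in keeping elastic fibres, lies at chr9:58287723-58313212 (GRCm38.p6, the assembly behind mm10). It was far higher in portal than in stellate cells, both fresh and cultured. Loxl1 measured 1028, 807, 1105 and 1286 CPM in PMSC, against 21.6, 45.2, 35.3 and 30.1 CPM in HSC. PMSC-MF-3d held 353 to 447 CPM, PMSC-MF-7d 328 to 489 CPM and HSC-MF-7d 10.1 to 15.8 CPM. No portal library, fresh or cultured, came near a stellate one. The log2 fold change was 5.0 ± 0.22 in PMSC against HSC (adjusted p = 2.2e-13) and 5.10 ± 0.22 in PMSC-MF-7d against HSC-MF-7d (adjusted p = 2.6e-12). Loxl1 fell in culture, by 1.42 ± 0.19 in PMSC-MF-3d against PMSC, by 1.30 ± 0.19 in PMSC-MF-7d against PMSC and by 1.40 ± 0.20 in HSC-MF-7d against HSC. It was the only one of the 10 whose culture changes in portal and stellate cells did not differ past the threshold (0.10 ± 0.27, adjusted p = 0.78), and the sign of that difference flipped with 3 of its alternatives, to between -0.12 and -0.03. Eln, the elastin gene, measured 978 ± 162 CPM in PMSC, against 14.8 ± 5.36 CPM in HSC (SD, n = 4 each). It measured 13.9 ± 4.93 CPM in PMSC-MF-3d, 104 ± 77.0 CPM in PMSC-MF-7d, where single libraries ran from 3.83 to 191 CPM, and 0.93 ± 1.28 CPM in HSC-MF-7d. Eln was higher by 2.90 ± 0.67 in PMSC-MF-7d than in PMSC-MF-3d (adjusted p = 0.0022), a comparison in which Loxl1 was not called (0.13 ± 0.18).

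Loxl2 (chr14:69608692-69695834), whose enzyme crosslinks collagen IV and fibrillar collagens, had its highest level in stellate-derived myofibroblasts. It measured 1254, 1495, 1361 and 1485 CPM in HSC-MF-7d, against 122, 202, 152 and 152 CPM in HSC. PMSC held 477 to 668 CPM, PMSC-MF-3d 277 to 324 CPM and PMSC-MF-7d 444 to 832 CPM. HSC-MF-7d stood above all 16 other libraries, and PMSC overlapped with PMSC-MF-7d but not with PMSC-MF-3d. Loxl2 rose by 3.16 ± 0.18 in HSC-MF-7d against HSC (adjusted p = 4.1e-12). In portal cells it fell by 0.98 ± 0.16 in PMSC-MF-3d against PMSC and was higher again by 1.19 ± 0.16 in PMSC-MF-7d than in PMSC-MF-3d (adjusted p = 1.6e-05), so that PMSC-MF-7d against PMSC gave 0.21 ± 0.16 (adjusted p = 0.25). That last value passed the threshold at 0.66 under library totals or log2 TPM, and at 0.39 without PMSC-MF-7d replicate 1. Between the fresh cells Loxl2 was higher in PMSC than in HSC, by 1.90 ± 0.17. Between the cultured cells it was lower in PMSC-MF-7d than in HSC-MF-7d, by 1.05 ± 0.16 on the log2 scale (-1.05, adjusted p = 2.7e-05). The order of the lineages was therefore the reverse in culture of that in fresh cells, with a difference of culture changes of -2.95 ± 0.23 (adjusted p = 2.4e-09).

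Loxl3 (chr6:83034205-83052566), required in mice for palate and spine development, rose mainly in portal cells. It measured 94.2, 98.6, 92.9 and 108 CPM in PMSC, 234, 152, 180 and 206 CPM in PMSC-MF-3d, and PMSC-MF-7d had 299, 308, 453 and 491 CPM. HSC-MF-7d held 94.3 to 113 CPM and HSC 71.0 to 84.8 CPM. The portal groups did not overlap and lay in the order of culture time, while HSC-MF-7d overlapped with fresh PMSC. Loxl3 rose by 0.97 ± 0.15 in PMSC-MF-3d against PMSC and by 1.98 ± 0.15 in PMSC-MF-7d against PMSC (adjusted p = 3.3e-10), and by 0.44 ± 0.15 in HSC-MF-7d against HSC (adjusted p = 0.011). The portal change was larger by 1.54 ± 0.21 (adjusted p = 2.9e-06), and PMSC-MF-7d exceeded HSC-MF-7d by 1.92 ± 0.15. Fresh PMSC were higher than HSC by 0.38 ± 0.15 (adjusted p = 0.027), a call that was lost with library totals (0.035) and without PMSC replicate 4 or any of HSC replicates 1, 2 and 4 (0.33 to 0.36), and whose sign flipped on log2 TPM (-0.0091).

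Loxl4 (chr19:42592279-42612806) was the least separated of the family. HSC-MF-7d held 229, 232, 229 and 251 CPM, against 61.4, 96.7, 112 and 83.1 CPM in HSC, and no other library reached the HSC-MF-7d range. PMSC spread widely, at 155, 220, 114 and 93.4 CPM, while PMSC-MF-3d held 77.1 to 110 CPM and PMSC-MF-7d 110 to 167 CPM. The PMSC libraries overlapped with both HSC and PMSC-MF-7d. Loxl4 rose by 1.41 ± 0.22 in HSC-MF-7d against HSC (adjusted p = 7.0e-06) and was lower in PMSC-MF-7d than in HSC-MF-7d (-0.72 ± 0.21, adjusted p = 0.0085). Its other calls were less firm. PMSC exceeded HSC by 0.72 ± 0.21 (adjusted p = 0.0048), which was not called with library totals (0.37) or log2 TPM (0.29). The fall of 0.61 ± 0.21 in PMSC-MF-3d against PMSC was not called with those scalings or without PMSC replicate 2 (-0.39) or PMSC-MF-3d replicate 1 (-0.49). The difference of 0.59 ± 0.21 between PMSC-MF-7d and PMSC-MF-3d (adjusted p = 0.037) was lost when 6 of the 8 libraries were left out 1 at a time. PMSC-MF-7d against PMSC gave -0.03 ± 0.21 with TMM and 0.45 with library totals.

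**Figure D1:**
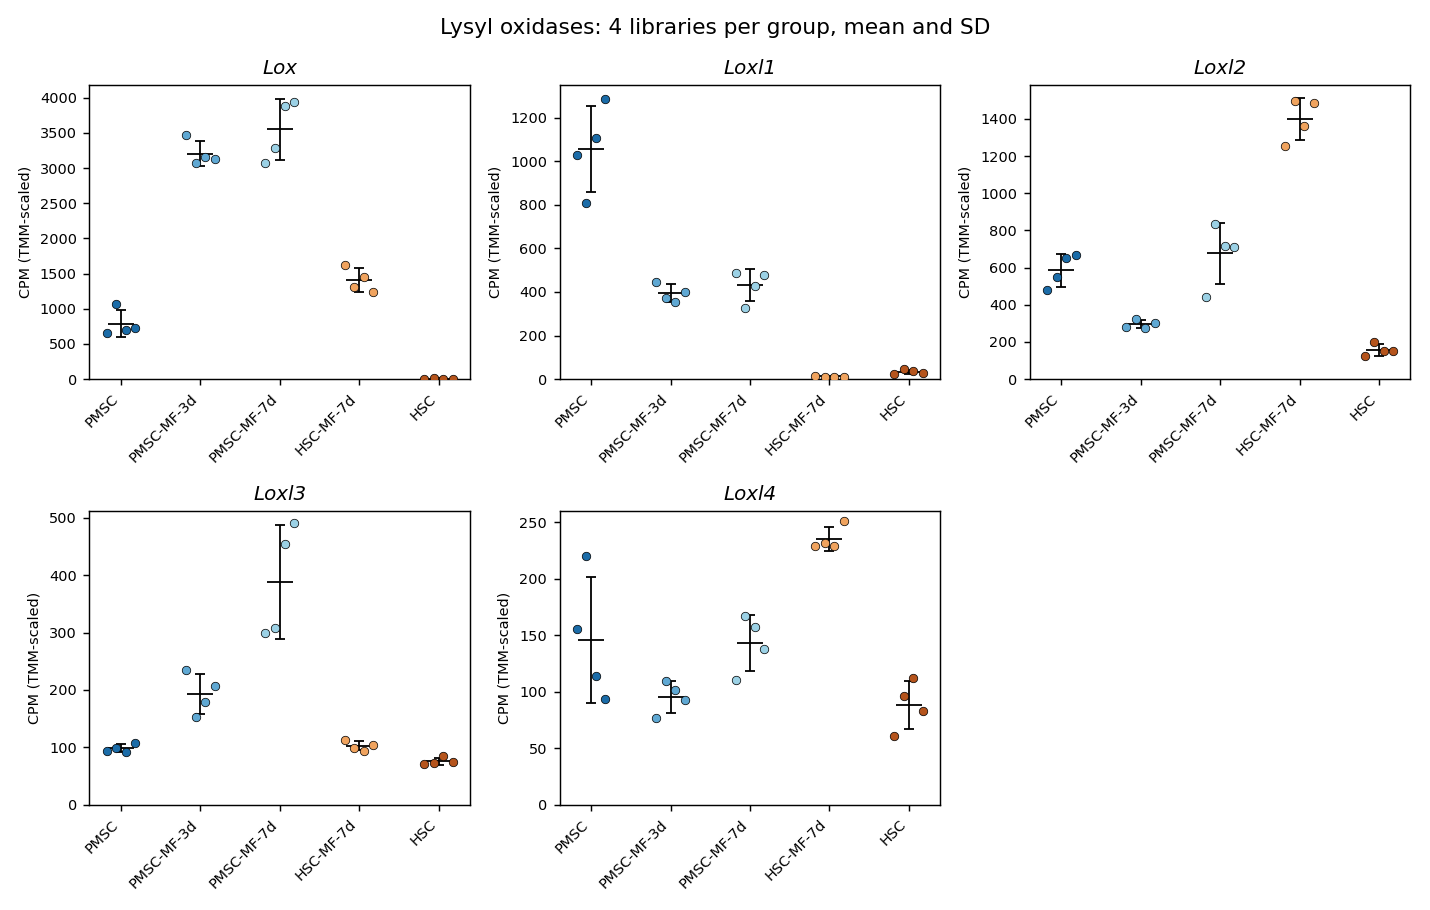
Levels of the 5 lysyl oxidase genes in CPM scaled by TMM (y axis, linear, from 0) in the 5 groups (x axis). Points are single libraries, 4 per group, and the bar and whiskers are the mean and SD; Lox is at 2.26 to 12.5 CPM in HSC and at 1239 CPM or more in all 12 cultured libraries, while Loxl1 stays under 50 CPM in both stellate groups.

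Levels of different genes were compared in TPM, which divides by transcript length. TPM is not scaled by TMM, whose factors were 0.739 to 0.811 in PMSC and 1.06 to 1.11 in PMSC-MF-7d. The size of a difference in summed TPM between groups therefore depends on the scaling. The 5 lysyl oxidases summed to 996 to 1321 TPM in PMSC, against 131 to 196 TPM in HSC. PMSC-MF-3d reached 2005 to 2197 TPM, PMSC-MF-7d 2452 to 3040 TPM and HSC-MF-7d 1525 to 1605 TPM. The makeup of that sum was different in each fresh cell type. In PMSC, Loxl1 gave 38.2% to 54.5% of it and Lox 21.6% to 35.3%. In HSC, Lox gave 0.58% to 2.93% and Loxl2 35.6% to 42.6%, with Loxl3 at 19.9% to 29.7% and Loxl4 at 18.8% to 24.9%. After culture Lox led in all portal libraries, with 72.7% to 74.9% at day 3 and 65.6% to 67.0% at day 7. In HSC-MF-7d, Lox (42.3% to 52.5%) and Loxl2 (36.3% to 45.7%) shared most of the sum, and Loxl1 gave 0.49% to 0.73%. These shares are descriptions and carry no test.

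**Figure D2:**
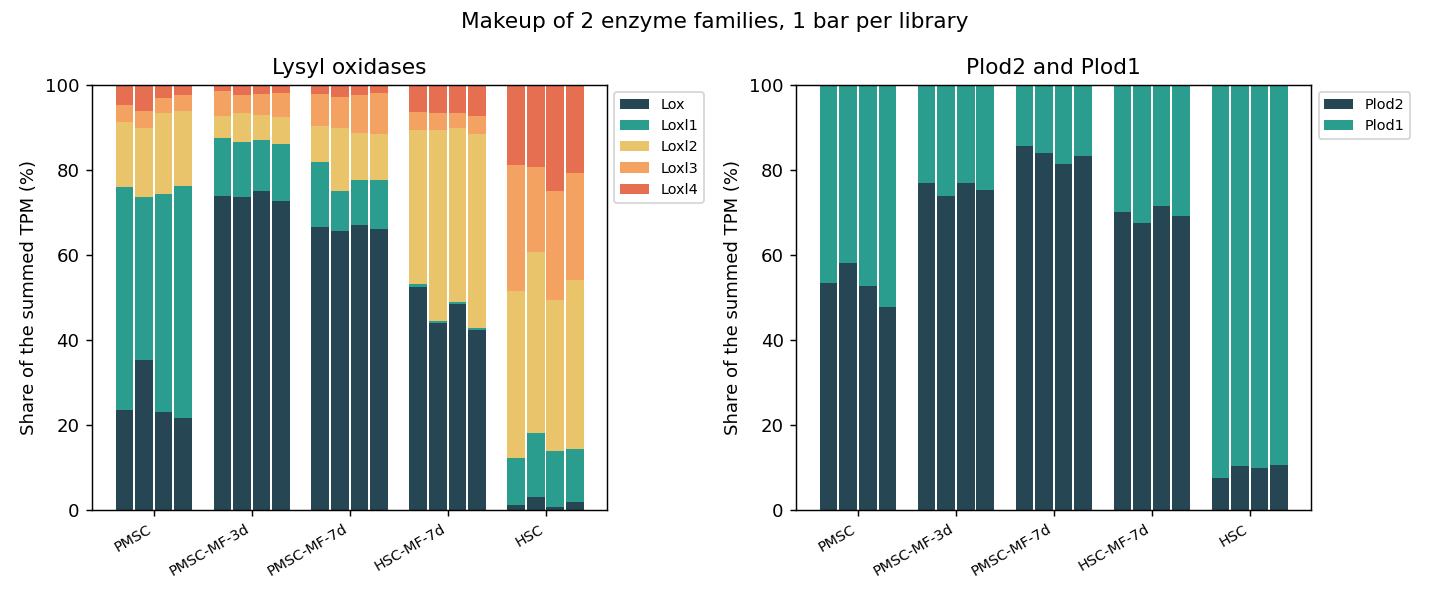
Share of each gene in the summed TPM (y axis, percent) of the lysyl oxidases (left panel) and of Plod2 and Plod1 (right panel). Each bar is 1 library, with 4 bars per group on the x axis; Lox makes up at most 2.93% of the lysyl oxidase sum in HSC and at least 65.6% in the cultured portal libraries, and Plod2 at most 10.4% of the pair in HSC.

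The prolyl 4-hydroxylase subunits followed a different course. P4ha1 (chr10:59323197-59373304), the main catalytic subunit of most cells, varied least. It measured 358, 379, 390 and 379 CPM in HSC-MF-7d, against 229, 275, 215 and 218 CPM in HSC. PMSC held 321 to 376 CPM, PMSC-MF-3d 276 to 290 CPM and PMSC-MF-7d 312 to 353 CPM. HSC lay lowest, and PMSC overlapped with both PMSC-MF-7d and HSC-MF-7d. P4ha1 was higher by 0.68 ± 0.08 in HSC-MF-7d than in HSC (adjusted p = 1.8e-07) and by 0.53 ± 0.08 in PMSC than in HSC (adjusted p = 5.7e-06), the second of which was not called on log2 TPM (0.15). Its portal culture changes depended on the scaling. PMSC-MF-3d against PMSC gave -0.26 ± 0.08 with TMM (adjusted p = 0.0057), 0.25 with library totals and 0.12 on log2 TPM, so that the direction flipped. PMSC-MF-7d against PMSC gave -0.02 ± 0.08 with TMM (adjusted p = 0.82) and 0.44 with library totals. PMSC-MF-7d against PMSC-MF-3d gave 0.24 ± 0.08 (adjusted p = 0.023), which was not called with library totals (0.19) or without 4 of the 8 libraries in turn (0.21 to 0.23). In PMSC-MF-7d against HSC-MF-7d, P4ha1 gave -0.17 ± 0.08 (adjusted p = 0.078), although the ranges of these groups did not overlap. It was called as lower with median-of-ratios size factors, DESeq2, log2 TPM and a fit of only the groups compared (-0.20 to -0.18), and with PMSC-MF-3d in place of PMSC-MF-7d (-0.41).

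P4ha2 (chr11:54100924-54131668) encodes a second catalytic subunit, prominent in chondrocytes and fibroblasts. It measured 87.0, 94.5, 84.3 and 93.3 CPM in HSC-MF-7d, against 17.1, 29.7, 22.2 and 29.3 CPM in HSC, with no overlap. PMSC held 41.4 to 66.6 CPM, PMSC-MF-3d 47.2 to 54.3 CPM and PMSC-MF-7d 67.7 to 83.2 CPM. P4ha2 rose by 1.87 ± 0.15 in HSC-MF-7d against HSC (adjusted p = 1.4e-09) and was higher by 1.02 ± 0.15 in PMSC than in HSC. In portal culture it was higher in PMSC-MF-7d than in PMSC-MF-3d (0.55 ± 0.15, adjusted p = 0.0067) and than in PMSC (0.57 ± 0.15, adjusted p = 0.0019). PMSC-MF-3d against PMSC gave 0.02 ± 0.15 (adjusted p = 0.92), with values from -0.07 to 0.52 over the alternatives. It was called as higher there with library totals (0.52) and on log2(TPM + 1) and log2(TPM + 0.1) (0.41 on each), so the day 3 result depends on the scaling. PMSC-MF-7d against HSC-MF-7d gave -0.28 ± 0.15 (adjusted p = 0.12). That comparison was called in a fit of only the groups compared (-0.29), and with PMSC-MF-3d in place of PMSC-MF-7d (-0.83).

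P4ha3 (chr7:100285489-100319701), the least abundant of the alpha subunits in most tissues, was at or near 0 before culture. It measured 1.46, 1.70, 3.45 and 0.81 CPM in PMSC, 31.8, 19.8, 28.9 and 32.2 CPM in PMSC-MF-3d, and PMSC-MF-7d had 74.6, 49.5, 56.8 and 77.1 CPM. HSC-MF-7d held 13, 11, 9.88 and 14 CPM, and the HSC libraries held 3, 1, 0 and 0 counts. The 5 groups did not overlap, with PMSC-MF-7d at the top. P4ha3 rose by 4.02 ± 0.31 at day 3 and 5.21 ± 0.31 at day 7 against PMSC (adjusted p = 3.1e-10 and 9.5e-12), and was higher by 1.2 ± 0.24 in PMSC-MF-7d than in PMSC-MF-3d. Against the 4 counts of HSC, the ratio of CPM was 202 in HSC-MF-7d (95% counting interval 78.5 to 742) and 27.8 in PMSC (10.5 to 104). These intervals cover counting error only. The fitted log2 values were 7.51 ± 0.50 for HSC-MF-7d against HSC and 4.72 ± 0.66 for PMSC against HSC, and leaving out HSC replicate 1, which held 3 of the 4 counts, moved them to 8.87 and 6.05. P4ha3 was higher in PMSC-MF-7d than in HSC-MF-7d, by 2.43 ± 0.25 (adjusted p = 1.9e-07). The difference of its culture changes, -2.29 ± 0.82 (adjusted p = 0.021), rested on those 4 counts: it was not called with library totals (-1.95), on log2(TPM + 0.1) (-0.83) or without HSC replicates 2, 3 or 4 in turn (-2.27 to -1.86), was -3.62 without HSC replicate 1, and was 1.18 on log2(TPM + 1).

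P4ha3 made up 0.32% to 1.36% of the summed TPM of the 3 alpha subunits in PMSC, 8.77% to 13.0% at day 3 and 16.8% to 22.9% at day 7 of portal culture. Its share was 3.12% to 4.33% in HSC-MF-7d and at most 0.13% in HSC. P4ha1 gave the largest share in all 20 libraries, between 54.8% and 87.8%. The 3 subunits together measured 307 to 376 TPM in PMSC-MF-7d, against 170 to 208 TPM in PMSC, and 326 to 351 TPM in HSC-MF-7d, against 143 to 177 TPM in HSC. These sums carry no TMM scaling, so the size of the portal rise depends on the scaling. In TMM-scaled CPM P4ha1 measured 334 ± 20.8 in PMSC-MF-7d, against 339 ± 25.7 in PMSC, while P4ha2 and P4ha3 were higher in PMSC-MF-7d. P4hb, the beta subunit, measured 1298 ± 68.5 CPM in PMSC-MF-7d, against 1080 ± 51.4 CPM in PMSC, and 1594 ± 19.1 CPM in HSC-MF-7d, against 755 ± 94.5 CPM in HSC (SD, n = 4 each). In TPM, the unit of the alpha subunit sums, P4hb measured 1126 ± 65.1 in PMSC-MF-7d, against 672 ± 32.2 in PMSC. It measured 1404 ± 30.2 TPM in HSC-MF-7d, against 611 ± 59.0 TPM in HSC.

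Plod1 (chr4:147909753-147936776) encodes lysyl hydroxylase 1, which modifies lysines of the collagen helix. It was the only one of the 10 with its highest level in HSC. Plod1 measured 136, 114, 138 and 121 CPM in PMSC, against 245, 257, 226 and 204 CPM in HSC. PMSC-MF-3d held 81.0 to 87.3 CPM, PMSC-MF-7d 70.5 to 86.1 CPM and HSC-MF-7d 103 to 116 CPM. Every fresh stellate library lay above all 16 others. Plod1 was lower in PMSC than in HSC (-0.88 ± 0.09, adjusted p = 1.9e-08) and fell by 1.08 ± 0.09 in HSC-MF-7d against HSC (adjusted p = 7.4e-10). Against PMSC it fell by 0.61 ± 0.09 at day 3 and by 0.65 ± 0.09 at day 7. The first was not called with library totals (-0.10) and the second not on log2 TPM (-0.17). The difference of culture changes, 0.43 ± 0.12 (adjusted p = 0.0046), was not called without PMSC replicate 2 (0.26). PMSC-MF-7d was lower than HSC-MF-7d (-0.45 ± 0.09, adjusted p = 0.00022), and PMSC-MF-7d against PMSC-MF-3d gave -0.05 ± 0.08.

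Plod2 (chr9:92539636-92608428) encodes lysyl hydroxylase 2, which modifies the telopeptides, the ends of the collagen chains. The hydroxylysines it makes there lead to the pyridinoline crosslinks that mark fibrotic collagen. Plod2 measured 178, 182, 176 and 127 CPM in PMSC, 320, 282, 311 and 289 CPM in PMSC-MF-3d, and PMSC-MF-7d had 559, 424, 432 and 488 CPM. HSC-MF-7d held 289, 276, 298 and 298 CPM, against 22.6, 33.7, 28.1 and 27.3 CPM in HSC. All 12 cultured libraries exceeded all 8 fresh ones, and HSC lay lowest. Plod2 was higher by 2.57 ± 0.13 in PMSC than in HSC (adjusted p = 9.6e-13). Against PMSC it rose by 0.86 ± 0.12 at day 3 and 1.52 ± 0.12 at day 7, and it rose by 3.38 ± 0.13 in HSC-MF-7d against HSC (adjusted p = 2.7e-14). The rise was smaller in portal cells (difference -1.86 ± 0.17, adjusted p = 1.9e-08). PMSC-MF-7d exceeded PMSC-MF-3d by 0.66 ± 0.12 and HSC-MF-7d by 0.71 ± 0.12 (adjusted p = 5.8e-05), but PMSC-MF-3d against HSC-MF-7d gave 0.05, not called, which matters because the culture time of HSC-MF-7d is uncertain.

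The ratio of Plod2 to Plod1 in TPM was 0.91 to 1.39 in PMSC, and 2.81 to 3.33 at day 3 and 4.35 to 5.93 at day 7 of portal culture. It was 2.07 to 2.52 in HSC-MF-7d, against 0.081 to 0.12 in HSC. Plod1 was the more abundant of the pair in all HSC libraries and 1 of the 4 PMSC libraries, and Plod2 in all cultured ones. The third lysyl hydroxylase gene, Plod3, measured 313 ± 25.4 CPM in PMSC-MF-7d, against 163 ± 6.74 CPM in PMSC, and 168 ± 10.4 CPM in HSC-MF-7d, against 98.6 ± 15.3 CPM in HSC (SD, n = 4 each).

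**Figure D3:**
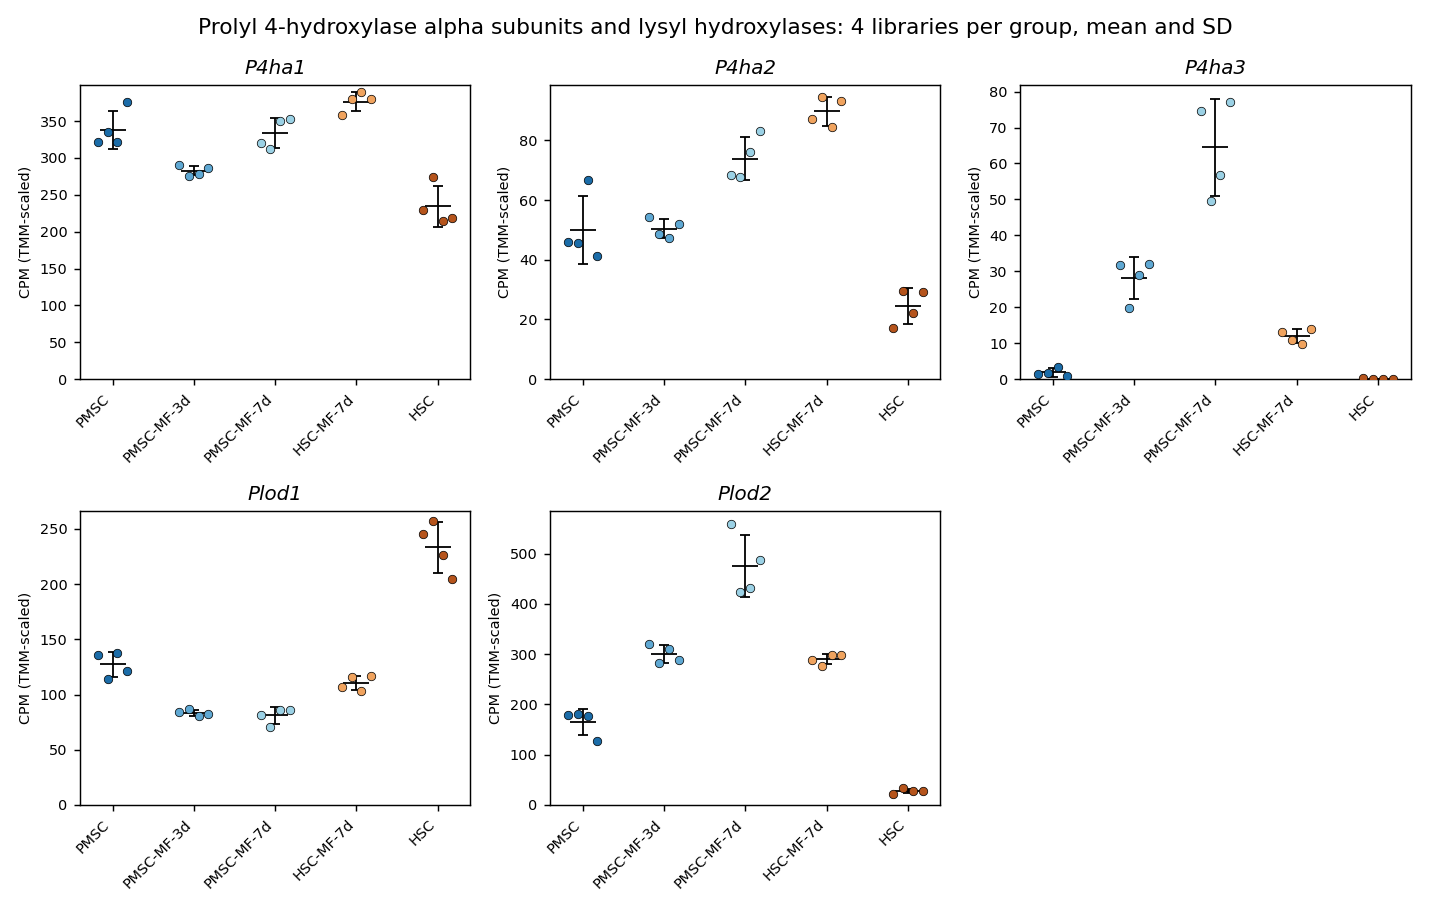
Levels of the prolyl 4-hydroxylase alpha subunit genes and of Plod1 and Plod2 in CPM scaled by TMM (y axis, linear, from 0) in the 5 groups (x axis). Points are single libraries, 4 per group, with mean and SD; P4ha3 has its highest level in PMSC-MF-7d (49.5 to 77.1 CPM), whereas Plod1 has its highest in HSC (204 to 257 CPM).

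Plod2 is spliced in 2 ways, with or without a short exon known to be included in the form that modifies telopeptides. In the GENCODE M21 annotation of GRCm38 this is coding exon 14 of 20, at chr9:92601985-92602047 on the plus strand. It is 63 bases long, a multiple of 3, so the reading frame is kept without it. The GENCODE transcripts with and without it also differ at both ends, in untranslated sequence. It is shown because the transcript length below bears on it, with capitals marking the whole exon.
Plod2 exon 14: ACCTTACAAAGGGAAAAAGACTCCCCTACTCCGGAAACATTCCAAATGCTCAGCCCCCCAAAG
The deposited tables give no reads per exon, but give for each gene a mean transcript length weighted by the estimated abundance of its transcripts, of which 2 are listed for Plod2. That length was 3707.09, 3709.93, 3711 and 3711 bases in PMSC, against 3690.86, 3686.43, 3690.49 and 3686.13 bases in HSC. PMSC-MF-3d had 3708.3 to 3709.65 bases, PMSC-MF-7d 3710.05 to 3711 and HSC-MF-7d 3705.63 to 3708.75. The HSC libraries were shorter than every library of the other groups.

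Mean length was longer by 21.3 bases in PMSC than in HSC and by 18.2 bases in HSC-MF-7d than in HSC, with p = 0.0286 in each (exact two-sided permutation test, 4 against 4, the smallest p this design allows; adjusted p = 0.0429 over 6 comparisons). PMSC-MF-7d exceeded PMSC-MF-3d by 1.85 bases and HSC-MF-7d by 3.92 bases, with the same exact p. PMSC-MF-3d against PMSC (-0.99 bases, exact p = 0.343) and PMSC-MF-7d against PMSC (0.86 bases, exact p = 0.543) did not pass. Groups not overlapping in mean length were found for 12.3% of 6112 genes with 2 or more transcripts in PMSC against HSC, and for 19.3% in HSC-MF-7d against HSC. The share was 5.58% between PMSC-MF-7d and PMSC-MF-3d, and 9.59% between PMSC-MF-7d and HSC-MF-7d. Shares of the shorter form assume that the 2 transcripts differ by the 63-base exon alone, which the deposited data do not state. The longest length of any library, 3711 bases, was taken to hold no shorter form, so a share of 0% is set by that choice. The shorter form then made up 0% to 6.21% in PMSC, against 32.0% to 39.5% in HSC. On the same assumptions its share was 3.57% to 8.52% in HSC-MF-7d. The HSC values come from 375 to 566 Plod2 counts per library, and RSEM divides reads between transcripts by a model. The endothelial, hepatocyte and macrophage RNA in HSC moves with this result, and its part was not tested.

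**Figure D4:**
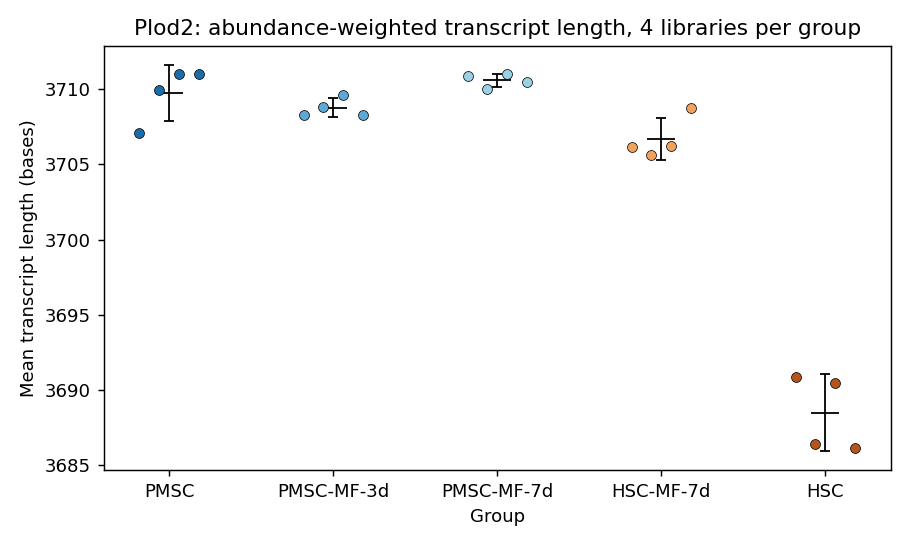
Mean transcript length of Plod2 in bases (y axis, not from 0), weighted by estimated transcript abundance, in the 5 groups (x axis). Points are single libraries, 4 per group, with mean and SD; the HSC libraries lie at 3686.13 to 3690.86 bases and the other 16 at 3705.63 or more.

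In the plot of culture changes the 3 comparisons stand side by side. Both portal comparisons share the PMSC libraries, so their likeness is partly built in. Lox, Loxl3, P4ha3 and Plod2 rose in all 3 cultured groups, each against its own fresh cells. Loxl1 and Plod1 fell in all 3. Loxl2 and Loxl4 rose in HSC-MF-7d and fell in PMSC-MF-3d, though the fall of Loxl4 was not called under library totals or log2 TPM. Of the 9 genes whose change differed between the lineages, Loxl3 and Plod1 had the higher value in portal cells and Lox, Loxl2, Loxl4, P4ha1, P4ha2, P4ha3 and Plod2 the lower one.

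**Figure D5:**
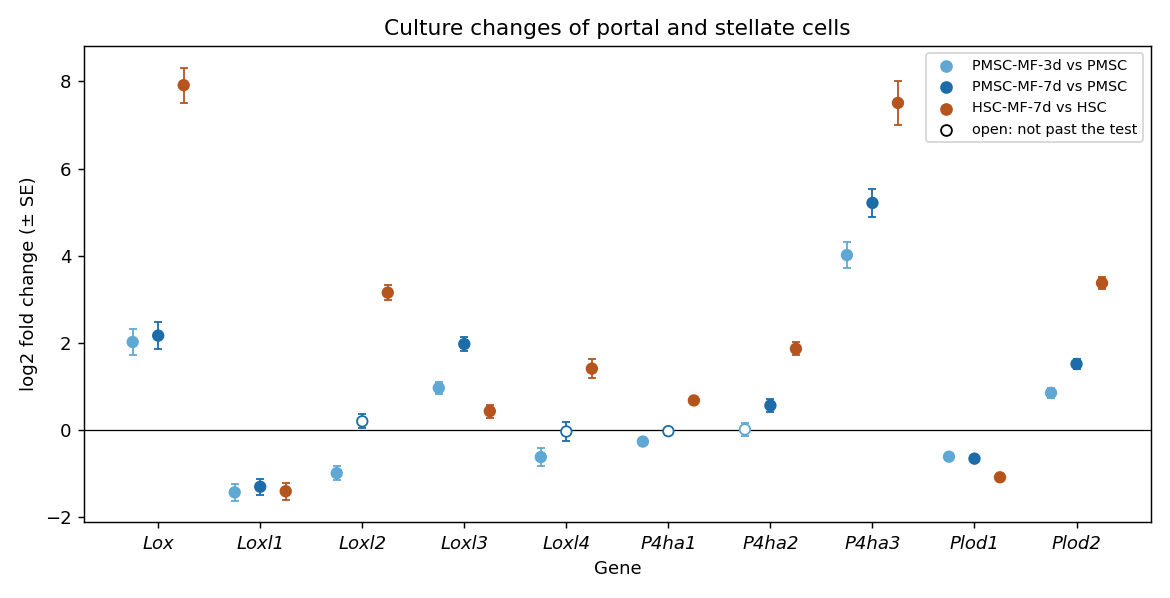
Log2 fold changes with SE (y axis) of the 10 genes (x axis) for the 3 cultured groups, each against its own fresh cells. Filled points passed the edgeR test at an adjusted p under 0.05 and open points did not; Lox and P4ha3 have the 2 tallest stellate values (7.91 and 7.51), and Loxl1 lies between -1.42 and -1.30 in all 3 comparisons.

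Other genes that process collagen, 24 listed and 23 tested, were higher for 17 and lower for 1 in PMSC against HSC (33.6% and 40.1% of all tested genes), and higher for 12 and lower for 7 in HSC-MF-7d against HSC (36.0% and 38.5%). In PMSC-MF-7d against PMSC, 8 were higher and 13 lower (38.1% and 39.0%). Bmp1, the protease that cleaves procollagen and releases active lysyl oxidase, measured 482 ± 99.6 CPM in PMSC, against 53.8 ± 11 CPM in HSC, and rose by 2.31 ± 0.14 in HSC-MF-7d against HSC. In portal culture Bmp1 measured 148 ± 7.05 CPM in PMSC-MF-3d and 279 ± 36.6 CPM in PMSC-MF-7d, and its culture change was lower in portal than in stellate cells, with a difference of culture changes of -3.10 ± 0.20 (adjusted p = 1.1e-10). Tll1, a related protease, measured 246 ± 19.1 CPM in PMSC-MF-3d, against 0.32 ± 0.33 CPM in PMSC, and 280 ± 65.8 CPM in HSC-MF-7d, against 0.12 ± 0.24 CPM in HSC. Fkbp10, whose product is a chaperone that assists Plod2 in telopeptide hydroxylation, rose by 3.11 ± 0.13 in HSC-MF-7d against HSC, to 354 ± 6.46 CPM. In portal cells Fkbp10 measured 163 ± 34.5 CPM in PMSC, 402 ± 26.9 CPM in PMSC-MF-3d and 501 ± 32.3 CPM in PMSC-MF-7d. P3h2, a prolyl 3-hydroxylase gene, was lower in PMSC-MF-7d than in HSC-MF-7d, at 0.89 ± 0.60 CPM against 47.5 ± 9.06 CPM (SD, n = 4 each). The difference of culture changes was lower in portal cells for 16 of the 23 and higher for 0 by edgeR, beside 29.2% and 31.4% of all tested genes. The count of 0 held also at an unadjusted p under 0.05 and by DESeq2, with 3 higher under library totals or log2 TPM.

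Of the 10 genes for the maturation and cofactors of lysyl oxidases, 4 were higher and 4 lower in PMSC against HSC, and 2 were higher and 4 lower in PMSC-MF-7d against PMSC, both beside the same shares of all genes as above. Library totals changed the higher counts to 2 and 5. Fbln5, whose product tethers Loxl1 to elastic fibres, measured 1624 ± 341 CPM in PMSC, against 162 ± 31.5 CPM in HSC. In culture Fbln5 measured 139 ± 35.6 CPM in PMSC-MF-3d, 383 ± 167 CPM in PMSC-MF-7d and 186 ± 18.2 CPM in HSC-MF-7d. Fn1, encoding fibronectin, which binds Lox and promotes its processing, was higher by 1.84 ± 0.15 in PMSC-MF-7d than in HSC-MF-7d. Atp7a, the copper pump that loads secreted copper enzymes, was lower there, at 35.5 ± 1.22 CPM in PMSC-MF-7d against 154 ± 19.4 CPM in HSC-MF-7d (SD, n = 4 each).

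The substrate genes, 9 fibrillar collagen chains and Eln, were all higher in PMSC than in HSC, at a median log2 fold change of 3.59. Of all tested genes, 33.6% were higher there. Col2a1 (0.52 CPM in PMSC, 0 in HSC) and Col11a1 (1.48 CPM in PMSC, 0.03 in HSC) were near the floor in both fresh groups. In PMSC-MF-3d against PMSC 2 were higher and 7 lower (37.2% and 41.1% of all genes), and in PMSC-MF-7d against PMSC-MF-3d 7 were higher (18.6%). In PMSC-MF-7d against PMSC 4 were higher and 5 lower (38.1% and 39.0%), and in HSC-MF-7d against HSC 4 were higher and 3 lower (36.0% and 38.5%). Col1a1 measured 9813 ± 1308 CPM in PMSC-MF-7d, against 8413 ± 1382 CPM in PMSC, and 2285 ± 93.6 CPM in HSC-MF-7d, against 239 ± 186 CPM in HSC (SD, n = 4 each). Other chains had other levels. Col1a2 measured 5844 ± 763 CPM in PMSC-MF-7d, against 10382 ± 1280 CPM in PMSC, and 755 ± 71.4 CPM in HSC-MF-7d, against 708 ± 165 CPM in HSC. Col3a1 measured 1310 ± 324 CPM in PMSC-MF-7d, against 10688 ± 2280 CPM in PMSC, and 681 ± 8.58 CPM in HSC-MF-7d, against 1480 ± 467 CPM in HSC. HSC replicate 2, the library with the highest Lox of its group, also held the highest Col1a1, at 516 CPM. Whether the collagens and the enzymes share a source in that library was not tested.

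P4ha1, P4ha2, Plod2 and several lysyl oxidase genes are known targets of hypoxia-inducible factors in cultured cells. Whether oxygen had a part in the changes of the 10 enzymes here was not tested. Of 15 hypoxia response genes listed, 14 were tested. In PMSC against HSC 11 were higher and 3 lower (33.6% and 40.1% of all tested genes), and in HSC-MF-7d against HSC 10 were higher and 3 lower (36.0% and 38.5%). In PMSC-MF-7d against PMSC 3 were higher and 7 lower (38.1% and 39.0%), or 5 higher under library totals. Vegfa measured 337 ± 67.2 CPM in PMSC, against 21.2 ± 1.70 CPM in HSC, and 135 ± 29.2 CPM in PMSC-MF-7d, against 337 ± 67.2 CPM in PMSC. Pgk1, 1 of the 3 higher in PMSC-MF-7d against PMSC, went the other way there, at 206 ± 16.4 CPM against 42.6 ± 5.09 CPM. In PMSC-MF-7d against HSC-MF-7d 10 were lower (23.1% of all genes) and 0 higher by edgeR (23.9%), 0 also at an unadjusted p under 0.05 and by DESeq2, with 2 higher where PMSC-MF-3d stood in for PMSC-MF-7d.

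The core of the hypoxia response element is spelled ACGTG or GCGTG, read on both strands. RefSeq promoter windows of 300 bases around the annotated start (GRCm38.p6) were matched for 5 of the 10 genes, namely Loxl4, P4ha1, P4ha2, P4ha3 and Plod1. ACGTG was found in 19.62% of all 32851 windows of this length and GCGTG in 32.39%. P4ha1 held 1 match to ACGTG and P4ha2 held 2, and the windows of Loxl4, P4ha3 and Plod1 held 0. GCGTG was found 2 times in each of P4ha1, P4ha2 and Plod1, 1 time in Loxl4 and 0 times in P4ha3. The windows of P4ha1 (chr10:59323046-59323345, plus strand) and P4ha2 (chr11:54100674-54100973, plus strand) are shown as those with ACGTG, with capitals marking each match to ACGTG on either strand. The first matched base lies at position -16 for P4ha1 and at -78 and 11 for P4ha2, counted from the annotated start on which each window is set. For P4ha2 that start is the first base of the gene span given above, 54100924. For P4ha1 it lies inside the span, which begins at 59323197, so the P4ha1 match also lies inside the gene.
P4ha1 promoter: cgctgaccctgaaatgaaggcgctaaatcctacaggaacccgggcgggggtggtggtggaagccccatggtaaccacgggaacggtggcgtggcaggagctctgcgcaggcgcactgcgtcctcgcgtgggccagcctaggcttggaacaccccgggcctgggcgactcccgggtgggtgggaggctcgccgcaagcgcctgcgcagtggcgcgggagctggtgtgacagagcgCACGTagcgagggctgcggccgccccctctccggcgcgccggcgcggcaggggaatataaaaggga
P4ha2 promoter: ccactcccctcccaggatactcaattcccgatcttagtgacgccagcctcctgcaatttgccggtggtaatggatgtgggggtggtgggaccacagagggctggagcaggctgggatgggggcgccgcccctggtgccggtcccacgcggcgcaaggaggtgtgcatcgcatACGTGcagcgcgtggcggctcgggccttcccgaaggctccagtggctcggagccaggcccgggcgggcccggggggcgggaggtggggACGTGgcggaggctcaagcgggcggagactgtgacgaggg
A match is a description of these letters, and none of the data here measure binding.

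Genes whose pattern over the 5 group means was most like that of each enzyme were ranked among 11098 tested genes by the root mean square difference of log2 CPM after centring. P4ha1 lay nearest to Hif1a (0.050) and Ppp2cb (0.052). Lox lay nearest to S100a6 (0.19) and Cdh11 (0.27), Loxl3 to Ptprf (0.12), Loxl4 to C1qtnf6 (0.13), Plod1 to B3galt1 (0.069) and Plod2 to Trim46 (0.15). Loxl1 and P4ha3 had no gene as near, with Lsp1 at 0.48 and Asns at 0.48. With 5 points a close match is easily had for a gene that varies little, as P4ha1 and Plod1 do, and the values are descriptions. Among the 10 enzymes themselves, Loxl4 was nearest to P4ha1 (0.31), Loxl2 to P4ha2 (0.53) and Lox to P4ha3 (1.26).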

How the data were processed

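RNA of 20 libraries was read from the deposited tables, 1 per library. The deposited expected counts and TPM values are RSEM estimates, per the file headers, and STAR 2.5.3a, RSEM 1.2.28, FastQC, Trimmomatic and the mm10 build are named per the submitters' processing notes, without settings. The deposited transcript lengths, in bases, entered as a mean per gene. The deposited FPKM values were not used.

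Expected counts were rounded and tested in edgeR 4.0.16 (R 4.3.3) with filterByExpr (10097 genes left out), TMM scaling and a robust quasi-likelihood fit of the 5 title groups over all 20 libraries; SE is the log2 fold change over the square root of F. Alternatives were other size factors, library totals, no filter, DESeq2 1.42.0, limma 3.58.1 on log2(TPM + 1) and log2(TPM + 0.1), only the groups compared, a replicate block, PMSC-MF-3d in place of PMSC-MF-7d and leaving out each library. Libraries of a group differed by more than sampling noise. All 10 genes were named, with up to 4 called genes of at least 10 CPM per other list, of which a selection was printed. The genes and lists were chosen with earlier results of these data known.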

Additional observations from a re-analysis of the deposited data

Results flagged for a closer look

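In 3 of the 50 sets of 4 libraries (10 genes in 5 groups), 1 library stood far from the other 3 relative to the range of its group; chance gives about 1 in 20, or 2.5 of 50. Lox in PMSC replicate 2 was at 1068 CPM, with the other PMSC libraries at 662 to 730 CPM. Loxl4 in HSC-MF-7d replicate 4 was at 251 CPM, with the others at 229 to 232 CPM. Plod2 in PMSC replicate 4 was at 127 CPM, with the others at 176 to 182 CPM.

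The culture change of PMSC-MF-7d against PMSC differed from that of HSC-MF-7d against HSC for 9 genes by a test of the difference itself. The log2 difference was -5.74 for Lox, -2.95 for Loxl2, 1.54 for Loxl3, -1.44 for Loxl4, -0.70 for P4ha1, -1.30 for P4ha2, -2.29 for P4ha3, 0.43 for Plod1 and -1.86 for Plod2. The day 3 portal libraries in place of the day 7 ones kept these 9 calls and their directions.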

How the results depend on the processing

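The number of the 10 genes called stayed within 1.5 times in every comparison and alternative, between 5 and 10. Of 580 single-gene values under other settings, 530 kept call and direction, 17 lost the call, 14 gained it and 19 changed sign; leaving out 1 library kept 607, lost 20, gained 1 and changed the sign of 12. The sign changes under library totals were P4ha1 in PMSC-MF-3d against PMSC (0.25), and Loxl4 (0.45) and P4ha1 (0.44) in PMSC-MF-7d against PMSC. On log2(TPM + 1) and log2(TPM + 0.1) they were Loxl3 in PMSC against HSC (-0.0091 and -0.0092), P4ha1 in PMSC-MF-3d against PMSC (0.12 and 0.12), Plod1 in PMSC-MF-7d against PMSC-MF-3d (0.050 and 0.050), Loxl4 (0.50 and 0.51) and P4ha1 (0.45 and 0.46) in PMSC-MF-7d against PMSC, and, at + 1 alone, the culture difference of P4ha3 (1.18). Without the filter they were Loxl4 (0.027) and P4ha1 (0.033) in PMSC-MF-7d against PMSC. P4ha2 in PMSC-MF-3d against PMSC was -0.053 with median-of-ratios size factors and with DESeq2, and the culture difference of Loxl1 was -0.026 with day 3 portal cells. The causes were not tested.

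With 1 library left out at a time, values ran from -0.066 to 0.19 for P4ha2 in PMSC-MF-3d against PMSC, from -0.078 to 0.016 for Plod1 in PMSC-MF-7d against PMSC-MF-3d, from -0.19 to 0.15 for Loxl4 and -0.11 to 0.040 for P4ha1 in PMSC-MF-7d against PMSC, and the culture difference of Loxl1 from -0.12 to 0.27; none of these was called with all libraries. Whether replicate numbers pair the libraries is not settled. Correlations of deviations between same-numbered libraries lay between -0.041 and 0.15, and between 0.0024 and 0.12 in PMSC-MF-7d against PMSC-MF-3d. In that comparison replicates 1, 2 and 4 had their best match in the same number. The fit with the replicate block kept the call and direction of all 70 gene values, with 10772 genes called in PMSC against HSC. The lowest HSC levels, those of P4ha3 and Lox, are limited by counts.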
